A study of Mus musculus with 108 samples.

Results

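A small group of promoters was recovered from reporter-positive embryonic stem cells and from reporter-positive cells of no later stage of blood development. Overlapping promoter fragments of the 95 sorted libraries were joined, which gave 17854 promoter sites. A site was called ES-only when a fragment was recovered from YFP-positive cells in at least 2 ES replicates and from no YFP-positive cells of the 4 later stages. This left 198 sites, against 11648 sites that were positive in at least 2 ES replicates. They lay nearest to 189 genes of the GENCODE annotation of the mm10 genome. The sites were chosen by their recovery in positive cells, so that recovery is given as a description without a test.

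All libraries came from the mouse line HM-1, embryonic stem (ES) cells whose non-functional HPRT locus is repaired when a reporter cassette recombines into it. The cassette carries 1 genomic fragment in front of the HSP68 minimal promoter and Venus-YFP. Fragments were cut by the Tn5 transposase from open chromatin of the 5 stages, cloned first into the vector pDONR and then into the reporter vector pSKB. The stages were untreated ES cells, FLK1+ hemangioblasts (HB), KIT+ TIE2+ CD41- hemogenic endothelium (HE1), KIT+ TIE2+ CD41+ hemogenic endothelium (HE2) and KIT+ TIE2- CD41+ hematopoietic progenitors (HP). Each stage had 5 replicates, sorted into Negative, Low, Medium and High YFP gates in replicates 1 to 4 and into Negative, Low and Medium/High gates in replicate 5. The sources used here do not give which plasmid pool entered the cells sorted at each stage, nor whether replicates were separate cultures, so p-values measure the spread between these samples only. HM-1 was the 1 line used, and fragment lists hold no expression of marker genes, so stage identity was not checked here.

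The deposited lists name each recovered fragment once and give no read numbers, so recovery and not reporter strength was measured. The 95 sorted lists held between 353 and 86062 promoter fragments. The 4 lists of ES replicate 1 held 104521 promoter fragments in all and those of replicate 2 held 132773. The lists of replicates 3, 4 and 5 held 34620, 6501 and 2443. Accordingly 175 and 179 of the ES-only sites were recovered in positive cells of replicates 1 and 2, and 157 in both, against 77, 10 and 5 in replicates 3, 4 and 5.

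A promoter is the stretch around a transcription start where general factors and RNA polymerase assemble. Promoters of genes that most cells use are usually rich in CpG dinucleotides and are accessible in many cell types. Promoters of tissue-restricted genes are more often poor in CpG. Pluripotent cells keep many genes of later lineages silent through Polycomb repression and sustain their own state through factors such as OCT4, SOX2 and NANOG. Differentiation towards blood passes from FLK1+ mesoderm through endothelium to RUNX1-expressing cells. In the reporter, a promoter fragment is read outside its own chromosome, next to a minimal promoter.

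The sequences that follow are fragments at ES-only sites, printed from the GRCm38 reference, plus strand, 5′ to 3′. The first 4 are shown because each fragment was recovered, end for end, from positive cells of 3 ES replicates. Capitals mark any of 16 short motif words, on either strand. The first lies inside mt-Nd5 (chrM:12118-12266), the mitochondrial gene for a subunit of respiratory complex I. The second lies upstream of Gtf2i (chr5:134314833-134314915), the third in an intron of Cdc34 (chr10:79683050-79683299) and the fourth upstream of the antisense gene 2410021H03Rik (chr17:69277399-69277598).
mt-Nd5: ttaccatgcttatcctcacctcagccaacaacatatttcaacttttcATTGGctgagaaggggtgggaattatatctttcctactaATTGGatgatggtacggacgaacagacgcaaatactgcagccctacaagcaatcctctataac
Gtf2i: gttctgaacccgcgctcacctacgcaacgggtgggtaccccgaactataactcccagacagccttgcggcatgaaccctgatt
Cdc34: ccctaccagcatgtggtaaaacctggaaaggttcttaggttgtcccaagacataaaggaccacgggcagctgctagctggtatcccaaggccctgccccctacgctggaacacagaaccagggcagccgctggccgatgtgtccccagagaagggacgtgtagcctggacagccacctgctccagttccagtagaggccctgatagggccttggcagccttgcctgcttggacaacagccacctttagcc
2410021H03Rik: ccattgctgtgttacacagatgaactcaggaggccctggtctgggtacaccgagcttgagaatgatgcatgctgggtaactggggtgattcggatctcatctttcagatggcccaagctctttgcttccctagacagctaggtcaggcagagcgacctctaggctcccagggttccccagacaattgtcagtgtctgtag
The mt-Nd5 fragment held the CCAAT word at 2 places on the minus strand, and the other 3 held none of the words. A further pair is shown because the nearest genes are on lists of regulators. One lies at Mtf2 (chr5:108076908-108077073) and the other at Pecam1 (chr11:106713780-106714016), and each was recovered in 1 ES replicate, with a different fragment of the site in another.
Mtf2: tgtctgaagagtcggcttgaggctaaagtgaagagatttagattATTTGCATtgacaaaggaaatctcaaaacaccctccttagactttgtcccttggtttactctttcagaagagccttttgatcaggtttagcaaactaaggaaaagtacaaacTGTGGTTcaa
Pecam1: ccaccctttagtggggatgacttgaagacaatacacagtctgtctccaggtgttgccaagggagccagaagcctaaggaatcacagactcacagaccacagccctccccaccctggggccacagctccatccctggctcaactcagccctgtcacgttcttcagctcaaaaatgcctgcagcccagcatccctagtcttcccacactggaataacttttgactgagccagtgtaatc
The Mtf2 fragment held the POU octamer on the minus strand and the RUNX word on the plus strand. The Pecam1 fragment held none.

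The ES-only sites recovered in the most replicates lay in mt-Nd5 and at Phlpp1 and Vwa1. Only 1 site, in mt-Nd5 (chrM:12110-12339), was positive in all 5 ES replicates, with 55, 56, 23, 1 and 2 distinct fragments in replicates 1 to 5. A second mt-Nd5 site (chrM:12479-12891) had 4, 5, 0, 3 and 2. Both lie in the coding sequence, with midpoints 482 and 943 bases past the gene's annotated start. They count as promoter sites only by their distance, within 1.5 kb of an annotated start.

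Among nuclear genes, the site of Phlpp1 (chr1:106172301-106173106), which codes for a phosphatase acting on AKT, had 9, 10, 1, 0 and 1 fragments. It lay in coding sequence with its midpoint 951 bases past the start. The site over the start of Vwa1 (chr4:155774489-155774893), an extracellular matrix protein gene, had 5, 3, 0, 1 and 1. Phlpp1, Vwa1 and the second mt-Nd5 site were the 3 positive in 4 replicates. The other sites were positive in 3 replicates (41 sites) or 2 (153 sites).

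Patz1, Lef1 and Gtf2i, which code for transcription factors, had sites positive in 3 replicates. The site over the start of Patz1 (chr11:3289790-3290738), a BTB zinc finger factor, had 10, 15 and 1 fragments in replicates 1 to 3, 20 distinct fragments in all. The site over the start of Lef1 (chr3:131110202-131110708), a transcription factor of Wnt signalling, had 6, 2 and 2. The site over the start of Gtf2i (chr5:134314698-134315342), the general factor TFII-I, had 5, 4 and 3. None of these sites was recovered in positive cells of replicates 4 or 5, whose lists were the shortest.

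The site of Atxn7l3 (chr11:102295126-102295747), a subunit of a histone deubiquitinase, had 3, 4 and 1 fragments in replicates 1 to 3. The site 1313 bases upstream of Ptma (chr1:86525049-86525778), which codes for prothymosin alpha, had 5, 10 and 2. At both sites replicates 1 and 2 gave most of the fragments.

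Further named sites were also positive in replicates 1 to 3. The site of Cdc34 (chr10:79682677-79683299), a ubiquitin-conjugating enzyme, had 6, 4 and 3 fragments in replicates 1 to 3. The site of Vdac1 (chr11:52361062-52361653), a channel of the outer mitochondrial membrane, had 5, 4 and 1, and that of Mast2 (chr4:116463366-116464167), a microtubule-associated kinase, had 4, 4 and 1. Sites of Tmem79 (chr3:88334284-88334923), a membrane protein of the skin barrier, and Mocos (chr18:24652591-24653136), molybdenum cofactor sulfurase, were recovered most often in replicate 3, with 6 fragments after 1 and 2 for Tmem79 and with 5 after 1 and 1 for Mocos.

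**Figure D1:**
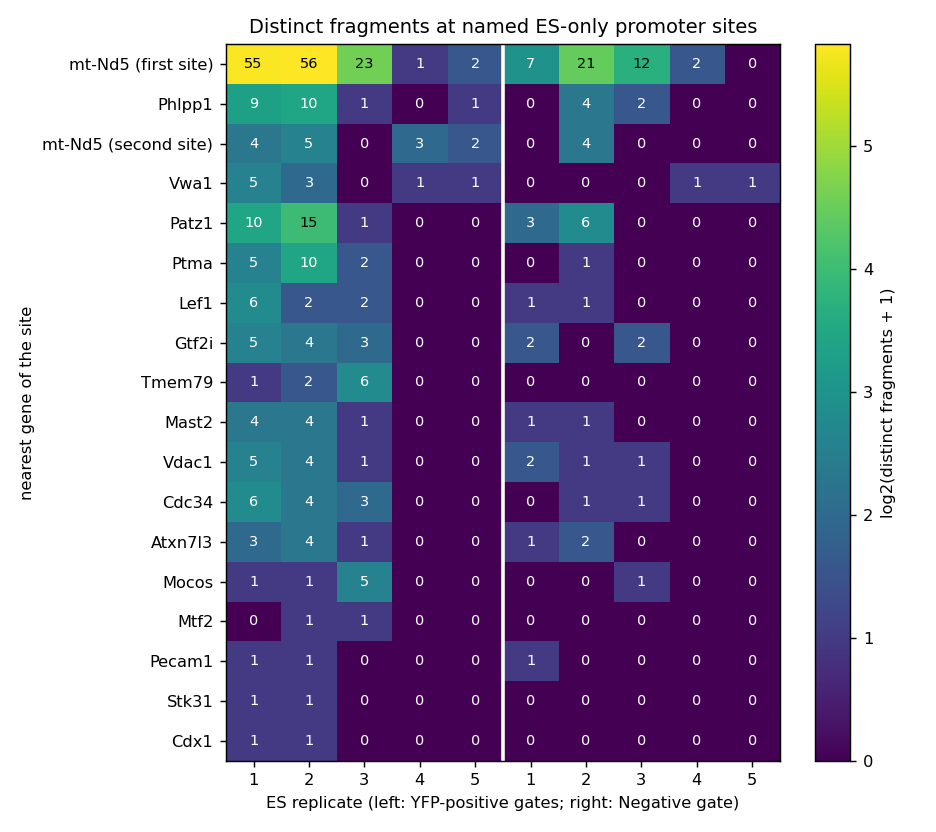
Distinct fragments at 18 named ES-only sites (rows, by nearest gene) in each ES replicate (columns), in YFP-positive gates on the left and in the Negative gate on the right, with the number printed in each cell and the colour showing log2 of that number plus 1. The first mt-Nd5 site reaches 56 fragments, the sites of Mtf2, Pecam1, Stk31 and Cdx1 have 1 in each replicate where they are positive, and 14 of the 18 sites are also recovered in Negative cells.

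ES-only sites at genes with a known role in pluripotency or blood were too few to set apart from the share over all genes. Of 24 pluripotency genes with a promoter site, 20 had one positive in ES, 14 in at least 2 ES replicates and 0 an ES-only site. Of 36 blood and endothelium genes with a site, 1 had an ES-only site, Pecam1, the endothelial adhesion molecule CD31. Of 6 germline genes with a site, 1 did, Stk31, a germ cell gene of the kinase family. Of 76 developmental factors, 1 did, Cdx1, a homeobox factor of posterior patterning. Of 57 chromatin regulators, 1 did, Mtf2, an accessory subunit of Polycomb repressive complex PRC2. Over all protein-coding genes, 152 of 13120 with a site did, or 1.16%, beside 2.78% for blood and endothelium, 1.75% for chromatin regulators and 1.32% for developmental factors.

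Each of these 4 sites was positive in exactly 2 ES replicates. The Stk31 site (chr6:49395428-49395718) spans the start and held 1 distinct fragment, the same in replicates 1 and 2. The Cdx1 site (chr18:61035264-61035477) lay in an intron and also held 1 fragment, in replicates 1 and 2. The Mtf2 site (chr5:108076908-108077173) held 2, in replicates 2 and 3, and the Pecam1 site (chr11:106713768-106714054) held 2, in replicates 1 and 2.
A list of zinc finger genes, made by symbol and without Patz1, had 357 with a site. Of these, 3 (0.840%) had an ES-only site, Zbtb7c, Zfp532 and Zfp872. Of 96 genes of the mitochondrial ribosome and complex I that are encoded in the nucleus, 0 had one. Of 12 olfactory and vomeronasal receptor genes with a site, Olfr222 had one.

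Most ES-only sites rested on few fragments. They held 669 distinct fragments in ES positive cells, with a median of 2 per site, where sites positive in at least 2 ES replicates had a median of 9. A single fragment made up 60 of the sites. The share of sites that were ES-only fell with the number of fragments. Among sites positive in at least 2 ES replicates it was 24.4% (60 of 246) with 1 fragment, 8.59% (68 of 792) with 2, 2.47% (41 of 1658) with 3 to 4, 0.715% (23 of 3216) with 5 to 9 and 0.105% (6 of 5736) with 10 or more. Small numbers of recovered fragments and restriction to ES went together, and their part in the restriction was not tested.

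Some fragments returned in a further ES replicate. An identical fragment was recovered in at least 2 ES replicates at 134 of the 198 sites (67.7%), and at the other 64 the replicates held different fragments. At the 60 sites with 1 fragment the rule itself required this. By fragment, 187 of the 669 (28.0%) were in at least 2 ES replicates, against 19.9% of all ES positive promoter fragments, for which no rule required it. The plasmid lists held an identical fragment for 569 of the 669 (85.1%). The authors kept fragments with an identical plasmid fragment, and why the rest had none here was not tested. The share over all ES positive promoter fragments is not given here. Fragments at ES-only sites were 70 to 553 bases long, with a median of 203, and those of all ES positive promoter fragments had a median of 211.

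Just outside the rule lay 50 sites that were positive in at least 2 ES replicates and had 1 later positive fragment. Those with the most ES replicates were at Gm26973 (5 ES fragments, 1 in HB), Igfbpl1 (4 and 1) and Cd74 (4 and 1), each positive in 3 ES replicates. Another 371 sites had no later positive fragment but were positive in 1 ES replicate. Just inside lay the 60 sites with 1 fragment in 2 ES replicates. Restriction to 1 stage was not particular in number to ES, since the same rule gave 270 sites for HB, 151 for HE1, 79 for HE2 and 117 for HP.

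In Negative cells, ES-only sites were recovered mostly at the ES stage. The rule did not use the Negative gates. They are not an independent check, since positive and Negative lists of a stage shared fragments. Of the 198 ES-only sites, 104 (52.5%, 95% exact binomial interval 45.3 to 59.6) had a fragment in ES Negative cells. Only 4 (2.02%) had one in HB Negative cells, each with 1 fragment, at Elmo2, Artn, Gal3st4 and Ajap1. In Negative cells of HE1, HE2 and HP there were 0, with an upper limit of 1.85% by the same interval. These intervals treat the sites as independent and cover counting error only, not the spread between replicates. By replicate, ES Negative cells held 15.2%, 36.9%, 13.1%, 1.52% and 1.52% of the ES-only sites. Over all promoter sites, 65.4% were listed in ES Negative cells, and the later stages gave 66.4%, 72.5%, 63.2% and 63.5% in developmental order.

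Within ES, these sites were recovered in Negative cells too, at a lower mean rate than in positive cells. Per 10000 promoter fragments listed, positive cells of replicates 1 to 5 held 45.4, 47.8, 59.8, 33.6 and 43.8 distinct fragments at ES-only sites (46.1 ± 9.40, SD, n = 5). Negative cells held 23.8, 37.9, 29.5, 32.0 and 45.5 (33.7 ± 8.27, SD, n = 5). The ranges overlapped. Since the rule required positive fragments, the positive values are set partly by the choice of sites. In the later stages the same rate was 0.304 ± 0.424 (SD, n = 5) in HB Negative cells and 0 in every other Negative list. Without chromosome M, the ES rates were 33.7 ± 12.4 in positive cells and 26.5 ± 11.9 in Negative cells.

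**Figure D2:**
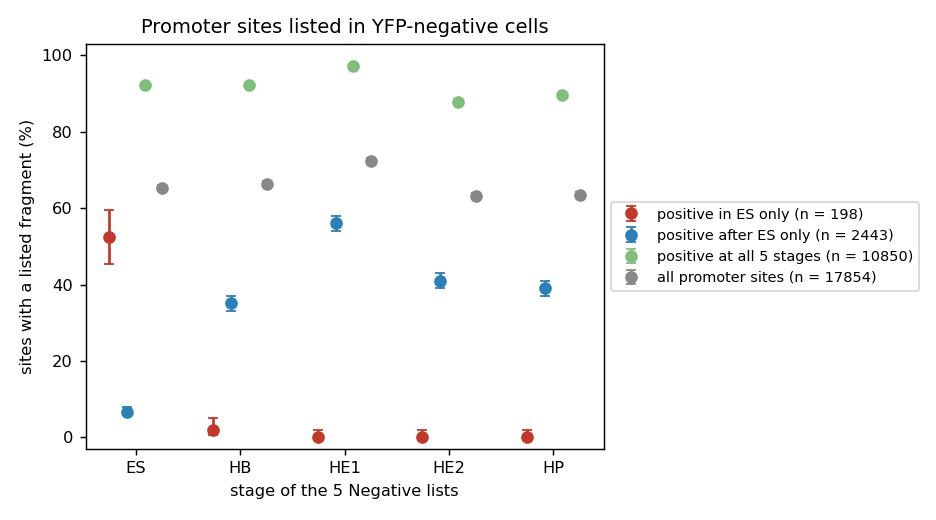
Percent of promoter sites with a fragment in any of the 5 Negative lists of each stage. Shown are ES-only sites, sites positive after ES only, sites positive at all 5 stages and all promoter sites. Bars give the 95% exact binomial interval, which leaves out the spread between replicates. ES-only sites fall from 52.5% in ES to 2.02% in HB and 0 in HE1, HE2 and HP, while all promoter sites stay between 63.2% and 72.5%.

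Restriction in Negative cells was not particular to ES-only sites. Of sites positive after ES only, 6.75% were in ES Negative cells, and from HB to HP the share was 35.1%, 56.1%, 40.9% and 39.1%. Of sites positive in HB only, 5.19% were in ES Negative cells and 46.7% in those of HB, followed by 0.370%, 0.370% and 0.741%. Sites positive in HE1 only were in HE1 Negative cells at 72.2% and at no other stage above 5.96%. The same values were 31.6% and 6.33% for HE2 only, and 50.4% and 2.56% for HP only. When Negative fragments that any positive list also held were left out, 64 of the 198 ES-only sites (32.3%) were still listed in ES Negative cells, 2 in HB and 0 in HE1, HE2 and HP.

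Single fragments of ES-only sites were also hardly recovered in later Negative cells. Of the 669 fragments, 94 (14.1%) were also in ES Negative cells, against 16.1% of the ES positive fragments at other promoter sites. HB Negative cells held 2 of them (0.299%), against 20.4% at other sites. Negative cells from HE1 onwards held 0, against 8.04%, 4.89% and 4.78% at other sites. Other sites' ES positive fragments also returned in later positive cells, with 38.3% at HB, then 20.4%, 18.7% and finally 12.4% at HP.

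Site by site, ES and later Negative cells were compared by limma for sites in at least 4 of the 25 Negative lists. Values were distinct fragments scaled to 10000 per list, on the log2 scale after 1 was added. Of 11734 sites tested, 1 (0.00852%) passed an adjusted p of 0.05, and 636 had an unadjusted p under 0.05. That site was the first mt-Nd5 site, and it was the 1 ES-only site of 198 that reached the filter. ES Negative replicates 1 to 5 held 7, 21, 12, 2 and 0 of its fragments and the 20 later Negative lists held 0. The site passed the filter through 4 ES lists alone, so a higher level in ES was fixed once it was tested, and its values are given as a description. Without replicate 1, 2, 3 or 4 it was in too few lists to be tested.

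Recovery of mitochondrial sites differed by stage, and their fragments were in every plasmid pool, with the most in that of ES. Of 5 promoter sites on chromosome M, 2 were ES-only. The first mt-Nd5 site had 111 distinct positive fragments in ES and 0 in each later stage, while the pSKB plasmid lists held 1591 of its fragments from ES and 606, 603, 659 and 723 from the later stages in order. The second had 14 in ES and 0 later, with 512, 208, 201, 224 and 244 in pSKB. In contrast, the site at mt-Ti, a mitochondrial tRNA gene, had 49 positive fragments in HB and 0 in ES, HE1, HE2 and HP, with 918, 334, 323, 428 and 397 in pSKB. The site at mt-Co1, a subunit of cytochrome oxidase, had 8, 6, 4, 2 and 0 along the 5 stages.

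**Figure D3:**
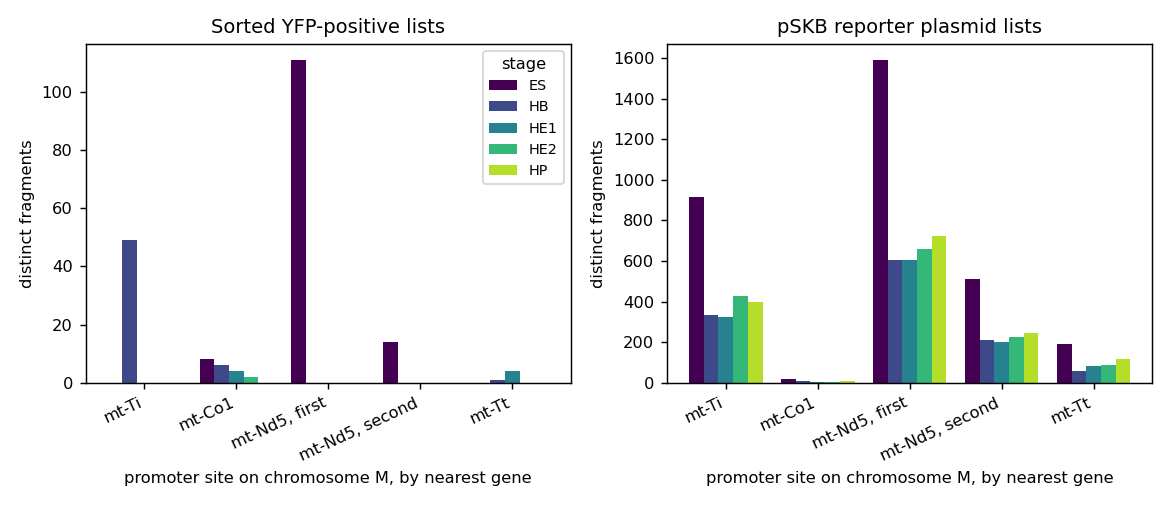
Distinct fragments at the 5 promoter sites on chromosome M (by nearest gene) in YFP-positive lists (left) and in the pSKB reporter plasmid lists (right), with 1 bar for each stage. The first mt-Nd5 site has 111 fragments in ES and 0 later and mt-Ti has 49 in HB and 0 elsewhere, and the pSKB lists hold at least 603 and 323 fragments at these sites, with the most in the ES list.

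Over the whole of chromosome M, positive lists of ES held 6.12 listings per 10000 listed fragments, and those of the later stages held 2.24, 0.186, 0.0529 and 0 in order. The Negative lists held 5.19 in ES and then 1.03, 0.110, 0 and 0. The order along the stages was the same in both kinds of list, but it rested on few sites. The mt-Nd5 sites held 111 and 14 of the 133 distinct ES positive fragments. For them the rule fixed later positive recovery at 0, so the fall in positive lists is set in large part by the choice of sites. The same sites held 41 and 4 of the 45 fragments in ES Negative cells, and mt-Ti held 49 of the 56 positive in HB. The authors kept fragments inside open chromatin peaks, and the sources used here do not give whether each stage was held against its own peaks. Its part in the restriction of these sites, or of any ES-only site, was not tested.

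Held-out replicates gave an uneven picture. When sites were chosen in replicates 1 and 2 alone, 158 were ES-only. Of these, 45 (28.5%) were positive in ES replicates 3 to 5 and 1 (0.633%) in those of HB, with 0 in HE1, HE2 and HP, and 27 (17.1%) were in ES Negative cells of replicates 3 to 5 and 0 in later Negative cells. Over all promoter sites, replicates 3 to 5 were positive at 51.7% in ES and, from HB to HP, at 57.0%, 34.3%, 38.9% and 23.2%. Their Negative lists held 41.0% of all promoter sites in ES and 22.4%, 23.0%, 9.84% and 24.4% from HB to HP. When sites were chosen in replicates 3 to 5, 60 were ES-only and 55 (91.7%) were positive in ES replicates 1 and 2, but 42 (70.0%) were positive in HB replicates 1 and 2, and 47 (78.3%), 46 (76.7%) and 41 (68.3%) in those of the 3 later stages. All promoter sites were positive there at 72.1% in ES and, from HB to HP, at 77.0%, 78.4%, 77.9% and 76.6%. Restriction seen in the short lists of replicates 3 to 5 did not carry over to the long lists of replicates 1 and 2.

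The plasmid pools held ES-only sites unequally. The pDONR list made from ES chromatin had a fragment at all 198 sites, and the later lists, from HB to HP, at 192, 195, 190 and 192. The pSKB lists had one at 195 in ES and then at 177, 169, 163 and 146. The pDONR list from ES held 9584 fragments on ES-only sites per 1000000 on promoter sites, and the later lists held 4597, 3668, 3947 and 4342. In pSKB the values were 9699, 4519, 3517, 3792 and 4212. ES over the mean of the later pools was 2.32 in pDONR and 2.42 in pSKB, and 1.98 and 1.96 without chromosome M. There was 1 list per stage and vector, and pSKB was cloned from pDONR, so no spread between replicates is known and no test was made.

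**Figure D4:**
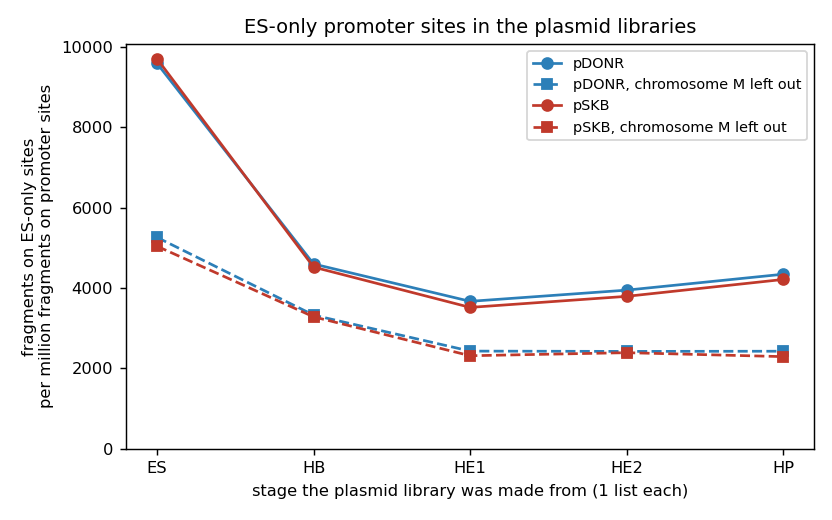
Fragments at ES-only sites per 1000000 fragments at promoter sites, in the pDONR and pSKB list made from each stage, with all sites (circles, solid lines) and without chromosome M (squares, dashed lines). In both vectors the ES pool is highest, 9584 and 9699 with chromosome M and 5257 and 5038 without it.

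Per site, the log2 ratio of the ES pool to the mean of the later pools, per 1000000 with 1 added, had a median of 1.34 in pDONR and 1.28 in pSKB, against 0.03 and 0.05 over all promoter sites. It was above 0 at 178 of the 198 sites in pDONR and 168 in pSKB, or 89.9% and 84.8%, where all promoter sites had 52.3% and 52.9%. Sites positive after ES only had medians of -0.02 and 0.00. The part of these plasmid levels in the restriction to ES was not tested.

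Some sites near the ends of this order were picked after their values were seen. Sites with few fragments in the pDONR list from ES were left out, such as Atp5g3 with 15 (-0.71). At Mtf2, pDONR lists from ES to HP held 28, 0, 2, 0 and 0 fragments (log2 ratio 4.20). At Cldn4, which codes for a tight junction claudin, they held 90, 13, 13, 8 and 7 (3.63). At Gsta4, a glutathione transferase gene, they held 70, 5, 14, 10 and 2 (3.64). The order ran the other way in pDONR at Smchd1, a chromatin protein of X inactivation, with 47, 90, 183, 117 and 124 (-0.62), and at Cdc34 with 42, 65, 138, 133 and 110 (-0.59). In pSKB the ratio was -0.42 at Smchd1 but 0.14 at Cdc34, and it was 3.77 at Mtf2, 3.52 at Cldn4 and 3.77 at Gsta4.

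Many ES-only sites were thin in the later reporter pools. At 79 of them (39.9%) at least 1 of the 4 later pSKB lists had no fragment, against 8.53% of all promoter sites, and at 26 (13.1%) each later list had 10 or more, against 62.2%. Of the other promoter sites with 10 or more in each later list, 99.8% were positive at a later stage, and of those missing from at least 1 list 76.3% were. The sites of Phlpp1, Patz1, Vdac1, Ptma and both of mt-Nd5 were among the 26 with 10 or more. The part of plasmid content in the restriction was not tested.

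**Figure D5:**
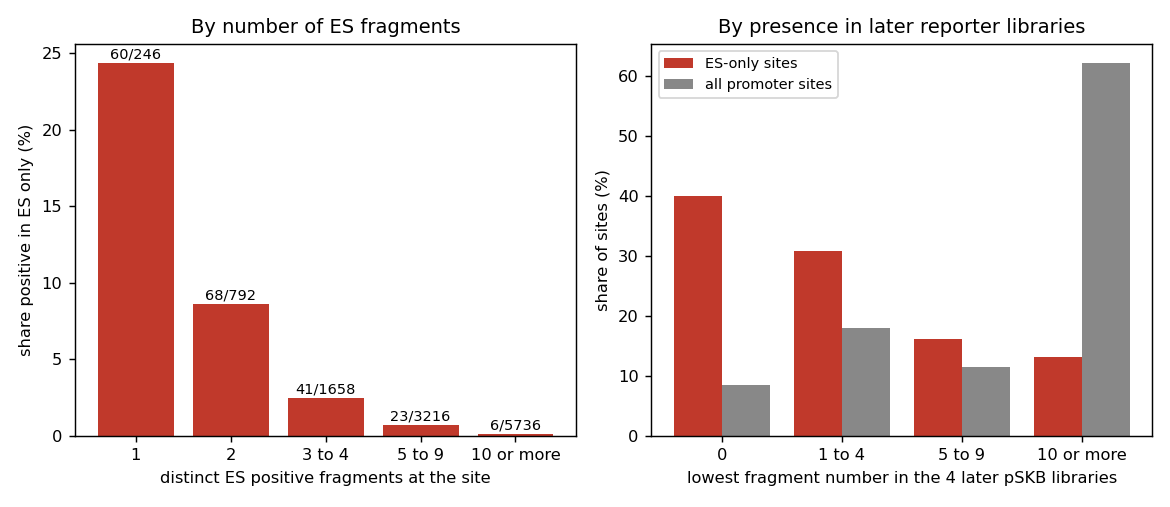
Left, percent of sites positive in at least 2 ES replicates that are ES-only, by the number of distinct ES positive fragments at the site, with counts above the bars. Right, percent of ES-only and of all promoter sites by the lowest number of fragments at the site among the 4 later pSKB lists. The ES-only share falls from 24.4% with 1 fragment to 0.105% with 10 or more, and 39.9% of ES-only sites lack a fragment in at least 1 later list against 8.53% of all sites.

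By listing, the YFP gates of these sites were close to those of all ES promoter fragments, and by site they differed. Of 1014 listings of their fragments in ES positive cells, 28.1% were in Low, 31.3% in Medium, 40.1% in High and 0.493% in Medium/High gates. Over all ES positive promoter fragments 30.2% were in Medium, 40.5% in High and 0.313% in Medium/High, so that 71.0% lay above Low, against 71.9% at ES-only sites. The Low share ranged from 15.8% in replicate 1 to 46.5% in replicate 3 at ES-only sites and from 16.1% in replicate 1 to 62.5% in replicate 5 overall. By site, 3 (1.52%) were recovered in Low alone, 66 (33.3%) above Low alone and 129 (65.2%) in both. Of the 11648 sites positive in at least 2 ES replicates, 0.601%, 7.06% and 92.3% were. Fragments per site moved with this, with a median of 2 at ES-only sites and 9 at those 11648, and their part in the gate classes was not tested.

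Limma compared gates above Low with Low over the 5 ES replicates, for sites in at least 4 of the 10 sets. Of 8588 sites tested 0 passed (0%) and 78 had an unadjusted p under 0.05. Of the 36 ES-only sites among them 0 had an unadjusted p under 0.05. Their median difference was -0.08 on the log2 scale, against -0.01 over all sites tested, and the values ran from -0.44 at the first mt-Nd5 site to 0.76 at the second. This fit left out pairing of gates by replicate, and with a replicate block 0 sites passed too. A difference between gates was not detectable at this depth.

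ES-only sites were narrow and often lay beside the transcription start. Their width was 83 to 949 bases with a median of 301.5, against 768 over all promoter sites. A transcription start lay inside 68 of them (34.3%), against 74.6%. The median distance of the midpoint from the nearest start was 270 bases, against 100. The midpoint lay in an intron at 70 sites (35.4%), between genes at 53 (26.8%), in a UTR at 32 (16.2%), in coding sequence at 23 (11.6%) and in a noncoding exon at 20 (10.1%). UTRs held 32.6% of all promoter site midpoints and introns 24.6%, and 17.3% and 37.1% at other sites of like width. The nearest gene was protein-coding at 159 sites (80.3%), against 91.0% of all and 85.1% of those of like width. Chromosome 11 held 27 of the sites (13.6%) and 8.81% of all promoter sites.

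In windows of 300 bases centred on the site, ES-only sites were poorer in CpG than promoters positive at every stage. Their median ratio of observed to expected CpG was 0.45, against 0.82 for the 10850 sites positive at all 5 stages, 0.51 for the 2443 positive after ES only and 0.74 for all promoter sites. Their median G+C content was 57.3%, against 66.3%, 58.3% and 63.7%. Narrow sites were poor in CpG in general. The 2636 other promoter sites with widths in the middle range of the ES-only sites had a median ratio of 0.47, a G+C content of 56.3% and a start inside 36.5%, all close to the ES-only values. Within the set the ratio ranged widely, from 0.04 at Ppdpf to 1.16 at a Tmem189 site. Repeat-masked sequence filled over 50% of the window at 6 sites (3.03%), against 0.588% of all and 1.40% of those of like width.

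Some words of general promoter factors were less frequent at ES-only sites than over all promoter sites, and others were not. The GC box GGGCGG was in the window of 33.3%, against 57.4% of all promoter sites and 34.6% of the sites of like width. The ETS word CCGGAAG was in 5.05%, against 11.9% and 4.93%, and the YY1 word AAGATGGCG in 0.505%, against 2.28% and 0.569%. Beside sites of like width these shares were close. The CCAAT word was in 30.8%, against 30.4% and 27.7%, and the TATA word TATAAA in 5.56%, against 4.07% and 5.92%.

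Other words were counted more often than over all promoter sites, in part as at sites of other single stages. The TEAD word ACATTCC was in 13 windows (6.57%), against 2.37% of all and 3.38% of like width, with Lef1, Vwa1 and Gsta4 among the genes, and 7.28% of sites positive in HE1 only held it. The AP-1 word TGANTCA was in 23 (11.6%), against 5.20% and 8.27%, and in 17.9% of HE1-only and 13.9% of HE2-only sites. The CRE word TGACGTCA was in 6 (3.03%), against 2.04% and 0.379%, and in 2.75% of sites positive at all 5 stages. The POU octamer ATGCAAAT was in 5 (2.53%), against 1.06% and 0.873%, at Ano7, Mtf2, Fah, Cerkl and Gm5124. The SOX word CATTGTT was in 5 (2.53%), against 1.58% and 2.43%, and the ESRRB word TCAAGGTCA in 0. Of words tied to blood factors, the GATA word AGATAA was in 5.05%, against 5.12% and 8.08%, and 9.62% of sites positive after ES only, and the RUNX word TGTGGTT in 4.55%, against 3.13% and 5.05%. All words were searched on both strands, the words may overlap, and a match is a description of letters and not of binding.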

How the data were processed

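Fragment lists were used from 95 sorted libraries, 10 plasmid libraries and 3 HM-1 controls. Per the methods and the submitters' processing notes, the authors used Trim Galore, Bowtie2, SAMtools, bedtools and HOMER with the mm10 genome. Fragments seen in the controls were removed, fragments of the plasmid union inside open chromatin peaks were kept, and distal fragments (over 1.5 kb from a start) were separated. Sorted lists were deposited as other values, intervals without read numbers, while each fragment of a plasmid or control list was deposited beside its whole-number read count, not normalized. After PCR a fragment seen once weighs as much as one seen often, so precision rests on distinct fragments.

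Starts of the plasmid and control lists were moved by 1 bp to match the sorted lists. Promoter intervals sharing a base were merged. A fragment counted at every site it overlapped. The nearest start was taken from GENCODE vM21 by site midpoint, and sequence from the GRCm38 reference, whose lengths held every coordinate on 22 of 22 chromosomes. Shares and exact binomial intervals were made in Python 3.11.15 (pandas 2.3.3, scipy 1.17.1, pysam 0.24.0), and single sites were tested with limma 3.58.1 (lmFit, eBayes with trend) in R 4.3.3, without a replicate block. Merging and limma were tested on simulated data.

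Named sites were the first 15 with a protein-coding gene by ES replicates, then fragments, then position; sites nearest to a gene on the pluripotency, germline, blood and endothelium, chromatin regulator or developmental lists; sites passing limma; and 3 sites just outside the rule. Other sites were named after their values were seen, and 1 site that the rule names is not reported here. The ES-only sites, the gene lists and the motif words were chosen with earlier results of these data known. Alternatives covered replicates, gates, depth, site outlines, plasmid and control matches, the value added, the filter, the total and the sequence window. Leaving out chromosome M was added after seeing the data.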

Additional observations from a re-analysis of the deposited data

How the results depend on the processing

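The count of 198 ES-only sites moved with the rule and the depth. It was 569 with a minimum of 1 ES replicate and 45 with 3, 372 with bins of 500 bp in place of merged sites, and 107 when High and Medium/High gates alone counted. It ranged from 73 to 197 when each replicate was left out. Without replicate 1 it was 83, with 68 of the 198 sites kept, and without replicate 2 it was 73, with 64 kept. It was 201 with distal fragments counted, 191 with plasmid-identical fragments, 202 when each stage was thinned to 178769 listings (replicates and gates stayed unequal) and 196 without chromosome M. Removing HM-1 control fragments left 198, as the authors had already removed them. In the comparison of Negative cells, 1 site was called, 10 with 0.25 added in place of 1, 8 with promoter fragments as the total, 1 without a filter, and 0 to 34 when a replicate was left out (0 without replicate 1 or 2, 30 without 3, 17 without 4, 34 without 5). ES-only sites made up 1 of the 10, 1 of the 8, 0 of the 30, 0 of the 17 and 1 of the 34. The high against low comparison gave 0 under each alternative. Same-numbered sets deviated together with correlations of 0.04 to 0.29 in the Negative comparison and 0.08 to 0.39 in the gate comparison, not all above 0.1, and a set correlated best with its own number in 2 of 5 cases in each. The main fits therefore did not take the numbers as pairing, although the gates of 1 stage with the same number were sorted from the same replicate. With the replicate block the comparisons gave 1 and 0 calls. The share of ES-only sites in ES Negative cells was 32.3% without fragments of positive lists and ranged from 27.3% to 52.5% with each replicate left out, lowest without replicate 2. Held-out recovery in ES was 28.5% and, with the choice turned round, 91.7%. The ratio of plasmid shares was 1.96 (pSKB) and 1.98 (pDONR) without chromosome M, from 2.42 and 2.32. The share above Low was 71.9% and ranged from 64.0% to 76.6%. RefSeq promoter windows matched 126 of 189 genes, so that check is void, and gave a median CpG ratio of 0.53. The causes were not tested.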
